A study of Mus musculus with 3 samples.

Results

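The genes described here are the G1 cyclins and the main inhibitors of the G1 to S transition: the D-type cyclins Ccnd1, Ccnd2 and Ccnd3, the E-type cyclins Ccne1 and Ccne2, the cyclin-dependent kinase inhibitors Cdkn1a (p21), Cdkn1b (p27) and Cdkn2a (p16Ink4a and p19Arf), and the pocket proteins Rb1 and Rbl1 (p107). They were chosen by symbol, as every array probe annotated to one of these names, which gave 10 genes of the 18120 symbols in the table and 20 probes of 25697. RNA was measured in embryonic stem (ES) cells of the mouse, with a 129 strain background and a green fluorescent reporter of Sox17 (Sox17-GFP), a gene switched on in definitive endoderm. In 2 groups the cells were Sox17-GFP(+) cells obtained after 7 days in differentiation medium with 5% serum and an added ligand. It was Activin A (human, recombinant, 50 ng/ml) for one group and Nodal (mouse, recombinant, 1000 ng/ml) for the other. The culture protocol gives 6 to 8 days for this step. The comparison group was the undifferentiated line, which the protocol keeps on gelatin with mouse embryonic fibroblasts in 15% serum with leukaemia inhibitory factor (LIF). Each group had 2 arrays, so that 6 arrays in all were analysed.

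All groups share the strain background and the reporter. Endoderm against ES cells therefore compares groups that differ in factor, time, serum, LIF and feeder cells together, and the effects of these cannot be told apart. No group cultured for the same days without either factor was analysed here, and how the GFP(+) cells were isolated is not described in the labels. The labels do not say either if a group's arrays stand for separate cultures, so p-values measure the spread between arrays, which may be technical. The title of the third sample says undifferentiated where the series design says SOX17-GFP (+). Sox17 had log2 levels of 6.58 and 6.45 on its arrays and of 11.79 to 11.90 on the other 4. Between 49.34% and 50.56% of probes were detected on each array. All 8 pluripotency markers examined were lower in both treated groups, beside 36.9% of all genes lower after Activin and 37% after Nodal. All 8 definitive endoderm markers were higher, beside 36.2% and 36.5% of all genes higher. They include Sox17, whose reporter defines the treated cells, so that its higher call followed from the design. Of the pluripotency markers 1 was detected on no treated array, and of the endoderm markers 3 on no undifferentiated array. Such markers met the detection filter only through the group where they were high, so that their call followed from the filter.

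Cells pass from G1 into S phase when cyclin D with Cdk4 or Cdk6, and then cyclin E with Cdk2, phosphorylate the retinoblastoma family of pocket proteins and so free the E2F factors that drive genes of DNA replication. Proteins of the Cip/Kip family (p21, p27) bind cyclin and kinase complexes, p16Ink4a blocks Cdk4 and Cdk6, and p19Arf stabilises p53 by inhibiting Mdm2. Mouse ES cells are known for a short G1 phase, high cyclin E and Cdk2 activity and little p21 or p16, and for a longer G1 once they differentiate.

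Among the genes described here, Rbl1 is a known E2F target and Cdkn1a a known p53 target, and promoter sequence is shown for these links. RefSeq windows of 300 bases (build GRCm38.p6, from 250 bases before to 50 after a transcription start) were available for 6 of the 10 genes, in 9 windows. They were searched on both strands for 4 forms of the E2F site, TTTCCCGC, TTTCGCGC, TTTGCCGC and TTTGGCGC, which do not overlap one another here. At least one of these occurred in 744 of 32851 windows of all genes (2.26%) and in 2 of the 9 windows. The p53-type pattern CATGNNNNNNCATG, chosen after the Cdkn1a sequence had been seen, occurred in 234 windows (0.712%). Of the windows below, those of Rbl1 and of the upstream Cdkn2a start hold an E2F match. That of the upstream Cdkn1a start holds the p53-type match. The windows of Ccne1 and the downstream Cdkn2a start hold neither of these patterns. Nor do the windows that are not printed, those of Ccnd3, Cdkn1b and the downstream Cdkn1a start. Each printed window is written 5′ to 3′ along the gene's strand, with the matched letters in capitals.
Rbl1, chr2:157204485-157204784, minus strand: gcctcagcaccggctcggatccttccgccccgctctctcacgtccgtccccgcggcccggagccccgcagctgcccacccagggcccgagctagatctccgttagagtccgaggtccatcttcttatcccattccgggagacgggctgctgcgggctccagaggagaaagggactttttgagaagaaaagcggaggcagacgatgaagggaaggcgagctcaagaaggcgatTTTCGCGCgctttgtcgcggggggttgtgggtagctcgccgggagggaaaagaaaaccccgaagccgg
Cdkn2a upstream start, chr4:89294570-89294869, minus strand: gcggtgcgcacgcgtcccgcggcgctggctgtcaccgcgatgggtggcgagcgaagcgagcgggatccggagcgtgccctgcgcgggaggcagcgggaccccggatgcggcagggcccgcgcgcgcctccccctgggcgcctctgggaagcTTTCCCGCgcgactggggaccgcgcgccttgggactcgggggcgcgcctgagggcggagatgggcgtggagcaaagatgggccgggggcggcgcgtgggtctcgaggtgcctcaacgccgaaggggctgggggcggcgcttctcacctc
Cdkn2a downstream start, chr4:89282143-89282442, minus strand: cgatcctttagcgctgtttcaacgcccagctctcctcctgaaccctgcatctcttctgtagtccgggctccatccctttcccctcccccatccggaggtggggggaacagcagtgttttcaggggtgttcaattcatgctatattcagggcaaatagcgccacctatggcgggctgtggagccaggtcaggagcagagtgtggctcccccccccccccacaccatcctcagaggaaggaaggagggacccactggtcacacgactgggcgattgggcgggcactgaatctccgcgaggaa
Cdkn1a upstream start, chr17:29090729-29091028, plus strand: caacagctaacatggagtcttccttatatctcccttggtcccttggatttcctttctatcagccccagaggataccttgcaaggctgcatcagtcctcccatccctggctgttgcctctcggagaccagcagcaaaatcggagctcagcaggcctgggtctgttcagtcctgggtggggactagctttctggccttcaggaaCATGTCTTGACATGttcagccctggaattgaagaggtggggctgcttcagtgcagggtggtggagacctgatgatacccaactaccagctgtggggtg
Ccne1, chr7:38107441-38107740, minus strand: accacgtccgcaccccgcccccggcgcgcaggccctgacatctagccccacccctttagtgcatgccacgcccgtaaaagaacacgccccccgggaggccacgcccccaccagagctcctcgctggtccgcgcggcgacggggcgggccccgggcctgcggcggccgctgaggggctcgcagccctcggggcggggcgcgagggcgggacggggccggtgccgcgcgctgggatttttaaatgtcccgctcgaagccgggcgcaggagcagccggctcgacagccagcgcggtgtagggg
Counted from the first transcribed base, the match began at -18 in Rbl1, at -99 at the upstream Cdkn2a start and at -48 at the upstream Cdkn1a start. The upstream Cdkn2a start is that of p19Arf and the downstream one that of p16Ink4a. A match describes letters in the window, and binding was not measured. A window without a match lacks these exact letters only, and does not mark a gene as free of E2F or p53 control.

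Endoderm from either factor had less Ccnd1, Ccnd3 and Ccne1 RNA and more Ccnd2, Cdkn1a and Cdkn2a RNA than undifferentiated cells, in each case by at least 2-fold on the brightest probe of the gene. Ccne2, Rb1 and Rbl1 were higher by less than 2-fold, and Cdkn1b was not detected well enough to be tested. Testing required detection, at a p-value under 0.05, on 2 or more arrays, and 17 of the 20 probes, for 9 of the 10 genes, met this, each on all 6 arrays. Levels below are log2 values after background correction and quantile normalization. Where groups are said to overlap or not, 2 arrays are set against 2, and the share of all probes without overlap was not counted. Changes are log2 differences between group means of 2 arrays with the moderated standard error (SE) of limma, and adjusted p-values are Benjamini-Hochberg values over all 14050 tested probes. At an adjusted p under 0.05, all 17 tested probes passed after Activin, 10 higher and 7 lower, where 72.5% of all tested probes passed (35.2% higher and 37.3% lower). After Nodal the same counts, 10 higher and 7 lower of 17, stood against a background of 73.2% (35.3% higher and 37.9% lower). Passing the test was thus common to most probes. By size, 12 of the 17 (70.6%) passed with at least 2-fold after Activin against 26% of all tested probes, and 13 of 17 (76.5%) after Nodal against 26.9%. The genes were chosen with earlier results of these data known, so the larger share describes the chosen set and is not a test of it. The median absolute log2 change over the 17 probes was 1.60 after Activin and 1.65 after Nodal, beside 0.54 and 0.56 over all tested probes. These probes are not independent, since several read the same gene. Counted by gene, all 9 passed in each comparison, 6 higher and 3 lower. Of all 10222 genes, 73.1% passed after Activin (36.2% higher and 36.9% lower) and 73.5% after Nodal (36.5% higher and 37% lower). By at least 2-fold, 6 of the 9 genes passed in each comparison, 3 higher and 3 lower, beside 26.9% of all genes after Activin and 27.6% after Nodal. Both comparisons use the same undifferentiated arrays. In RNA from many cells together, fewer cells of a type and less RNA per cell cannot be told apart.

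**Figure D1:**
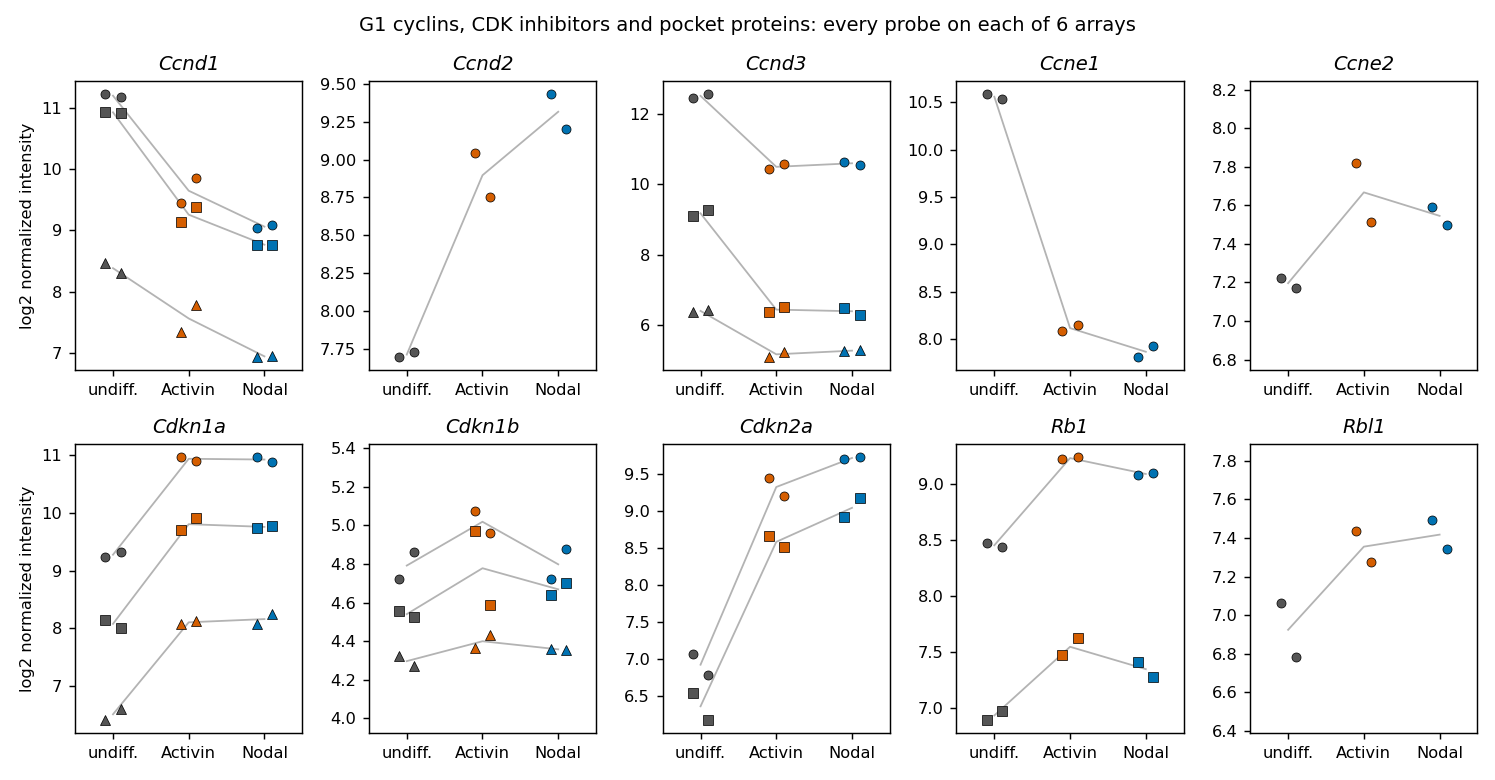
Log2 level (vertical axis, background-corrected and quantile-normalized) of all 20 probes on each of the 6 arrays, by group, with one symbol per probe (circle, square, triangle from brightest to dimmest), one point per array, and lines that join the group means. Panels have their own vertical range: Ccnd1, Ccnd3 and Ccne1 lie higher in undifferentiated cells, Ccnd2, Cdkn1a and Cdkn2a lower, and Cdkn1b stays between 4.27 and 5.08.

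Markers of other cell types were also higher in undifferentiated cells, and these values stand beside every comparison with them. Which cells the marker RNA came from was not tested. Of 17 fibroblast markers, 14 were tested. Of these, 13 were lower after Activin, and 12 were lower and 1 higher after Nodal, beside 36.9% and 37% of all genes lower. Of the 14, 6 were detected on no Activin array and 7 on no Nodal array. Their summed level was 4794 to 4994 on undifferentiated arrays, 912 to 929 after Activin and 993 to 994 after Nodal, with 42.9% to 43.1% of the undifferentiated sums from Timp1. Col1a2, Lum and Postn were not detected. All 10 tested of 16 macrophage markers were lower in both treated groups. Of the 10, 8 were detected on no Activin and no Nodal array. Markers of either list detected in undifferentiated cells alone met the detection filter only through those arrays, so that their lower call followed from the filter. The macrophage sums were 8652 to 9144 in undifferentiated cells, 474 to 487 after Activin and 472 to 477 after Nodal. Laptm5 alone made up 78.7% to 79.0% of the sums in undifferentiated cells. Without it the sums were 1817 to 1944, 238 (both Activin arrays) and 213 to 219. The defining macrophage genes Csf1r, Ptprc, Itgam, Spi1, Aif1 and Fcer1g were not detected. The part of feeder or macrophage RNA in the changes of the G1 genes was not tested.

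The D-type cyclins, which couple growth factor signals to Cdk4 and Cdk6, did not move together. Ccnd1 was read by 3 probes. Its brightest probe, ILMN_1221503, had log2 levels of 11.22 and 11.17 in undifferentiated cells, 9.45 and 9.85 after Activin and 9.04 and 9.08 after Nodal. The 3 groups did not overlap, and ranked undifferentiated, Activin, Nodal. Ccnd1 on this probe fell by 1.55 after Activin (SE 0.127, adjusted p = 3.28e-06) and by 2.14 after Nodal (adjusted p = 3.36e-07). The second probe, ILMN_2601471, stood at 10.94 and 10.92 in undifferentiated cells, 9.13 and 9.38 after Activin and 8.77 on both Nodal arrays. It kept the same order of groups, with changes of -1.67 after Activin and -2.16 after Nodal (SE 0.102). The dimmest probe, ILMN_2669793, read 8.47 and 8.30 in undifferentiated cells, 7.35 and 7.78 after Activin and 6.93 and 6.96 after Nodal. Its changes were smaller, -0.82 after Activin (SE 0.138, adjusted p = 0.000455) and -1.44 after Nodal, in the same direction as the others.

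Ccnd2 went the opposite way. Its single probe read 7.69 and 7.73 in undifferentiated cells, 9.04 and 8.75 after Activin and 9.43 and 9.20 after Nodal. Both undifferentiated arrays were below the 4 treated ones, and the 2 treated groups did not overlap either. Ccnd2 rose by 1.19 after Activin (SE 0.121, adjusted p = 1.55e-05) and by 1.61 after Nodal (adjusted p = 1.83e-06).

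Ccnd3 was lower on all 3 of its probes. The brightest, ILMN_3131063, had levels of 12.45 and 12.55 in undifferentiated cells, 10.41 and 10.56 after Activin and 10.63 and 10.55 after Nodal. Activin and Nodal arrays overlapped, while both undifferentiated arrays lay above them. The change was -2.01 after Activin (SE 0.0953, adjusted p = 7.37e-08) and -1.91 after Nodal. ILMN_1246473 changed more, from 9.08 and 9.26 in undifferentiated cells to 6.36 and 6.52 after Activin and 6.49 and 6.29 after Nodal, which are differences of -2.73 and -2.78 (SE 0.11). ILMN_2661849 read 6.37 and 6.43 in undifferentiated cells and 5.09 to 5.28 on the 4 treated arrays, with changes of -1.23 and -1.13 (SE 0.0927). The direction was shared by the 3 probes and the size was not.

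The E-type cyclins, which activate Cdk2 late in G1, also split. Ccne1 had levels of 10.58 and 10.53 in undifferentiated cells, 8.09 and 8.15 after Activin and 7.81 and 7.92 after Nodal. No groups overlapped. Ccne1 was 5.42-fold lower after Activin (log2 change -2.44, SE 0.0898, adjusted p = 1.38e-08) and 6.44-fold lower after Nodal (log2 change -2.69, adjusted p = 7.22e-09). Ccne2 read 7.22 and 7.17 in undifferentiated cells, 7.82 and 7.52 after Activin and 7.59 and 7.50 after Nodal. All 4 treated arrays were above the undifferentiated ones, with the treated groups overlapping. Ccne2 was 1.39-fold higher after Activin (log2 change 0.47, SE 0.113, adjusted p = 0.00405) and 1.27-fold higher after Nodal (log2 change 0.35, adjusted p = 0.0187). The Nodal result for Ccne2 did not pass without Nodal replicate 1 (adjusted p = 0.0958) or without undifferentiated replicate 2 (adjusted p = 0.0772).

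Among the inhibitors, Cdkn1a, a Cip/Kip protein and a classic p53 target, was higher on all 3 probes. ILMN_2634083 had levels of 9.23 and 9.32 in undifferentiated cells, 10.98 and 10.91 after Activin and 10.97 and 10.89 after Nodal. The treated groups overlapped and lay well above the undifferentiated arrays. Cdkn1a was 3.17-fold higher after Activin (log2 change 1.67, SE 0.0899, adjusted p = 1.77e-07) and 3.14-fold higher after Nodal (log2 change 1.65, adjusted p = 1.82e-07). The other 2 probes gave 1.73 and 1.60 after Activin and 1.68 and 1.65 after Nodal, so that the 3 probes of Cdkn1a differed less among themselves than those of Ccnd1 or Ccnd3.

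Cdkn2a, which encodes p16Ink4a and p19Arf from separate first exons, had the largest increase of the 9 tested genes on the brightest probe. ILMN_1226950 read 7.07 and 6.78 in undifferentiated cells, 9.44 and 9.21 after Activin and 9.70 and 9.73 after Nodal. No groups overlapped, and Nodal stood highest. Cdkn2a was 5.27-fold higher after Activin (log2 change 2.40, SE 0.121, adjusted p = 1.13e-07) and 6.92-fold higher after Nodal (log2 change 2.79, adjusted p = 3.9e-08). ILMN_1221177 read 6.54 and 6.18 in undifferentiated cells, 8.66 and 8.51 after Activin and 8.91 and 9.17 after Nodal, changes of 2.22 and 2.68 (SE 0.138). Which of the Cdkn2a transcripts either probe reads is not given in the files, so that the E2F match at the p19Arf start cannot be set against one of them.

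Cdkn1b had 3 probes, with levels of 4.27 to 5.08 over all arrays. Only ILMN_2638428 was detected on any array, at a detection p-value of 0.0388 on Activin replicate 1. No change of Cdkn1b was therefore tested, and a difference was not detectable at this signal over background.

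The pocket proteins were modestly higher. Rb1, the retinoblastoma protein gene, read 8.47 and 8.43 in undifferentiated cells, 9.22 and 9.24 after Activin and 9.08 and 9.10 after Nodal on its brighter probe. The 3 groups were separate, with Activin highest and undifferentiated cells lowest. Rb1 changed by 0.78 after Activin (SE 0.0847, adjusted p = 2.42e-05) and by 0.63 after Nodal (adjusted p = 9.44e-05), and by 0.61 and 0.41 on its dimmer probe. Rbl1, which encodes p107 and is itself a known E2F target, read 7.06 and 6.78 in undifferentiated cells, 7.44 and 7.27 after Activin and 7.49 and 7.34 after Nodal. The treated groups overlapped, and the undifferentiated arrays lay below them and were farther apart than the arrays of either treated group. Rbl1 changed by 0.43 after Activin (SE 0.118, adjusted p = 0.00854) and by 0.49 after Nodal (adjusted p = 0.00404). The Activin result for Rbl1 did not pass without Activin replicate 1 (adjusted p = 0.0617) or without undifferentiated replicate 2, where the change was 0.29 (adjusted p = 0.0724).

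**Figure D2:**
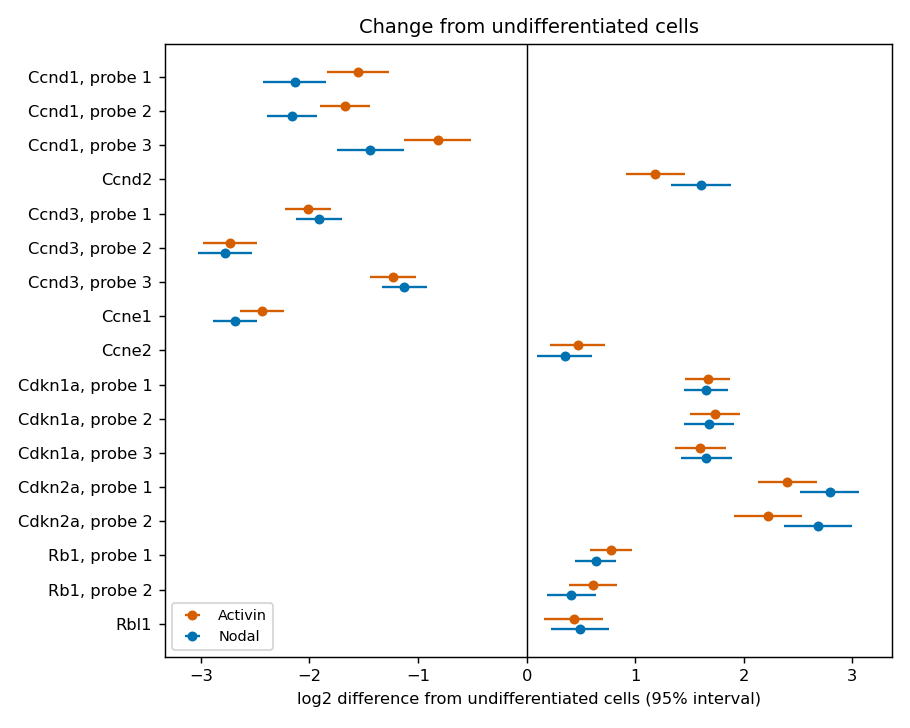
Log2 change from undifferentiated cells (horizontal axis) for each of the 17 tested probes after Activin and after Nodal, 2 arrays per group, with 95% intervals from the moderated SE. Probes of a gene are numbered from brightest to dimmest. Those of Ccnd1, Ccnd3 and Ccne1 lie left of 0 and all others right of it, from -2.78 to 2.79.

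Nodal against Activin compares endoderm made with either ligand at the doses given, which act through shared receptors. Only 1 of the 17 tested probes passed, the second Ccnd1 probe ILMN_2601471, where 2.04% of all tested probes did (0.975% lower, the direction of this probe). Ccnd1 on it was 1.40-fold lower after Nodal (log2 difference -0.49, 95% interval -0.72 to -0.26, adjusted p = 0.0484). The other Ccnd1 probes gave -0.59 (interval -0.87 to -0.30, adjusted p = 0.0565) and -0.62 (interval -0.93 to -0.31, adjusted p = 0.0623). Both Nodal arrays were below both Activin arrays on all 3 probes, which read the same gene on the same arrays and are not independent. The call did not hold without Activin replicate 2, where the difference on ILMN_2601471 was -0.37 (adjusted p = 0.231). It did not hold either without one of the Nodal arrays (adjusted p = 0.220 and 0.215) or one of the undifferentiated arrays (adjusted p = 0.0803 and 0.0861), but there the difference stayed between -0.49 and -0.48. Without Activin replicate 1, all 3 Ccnd1 probes passed. In each such fit the lone array of a group is assumed to vary like the arrays of the other groups. Of the fibroblast and macrophage markers, Tnc was higher (0.71, adjusted p = 0.0273) and Cd68 lower (-0.69, adjusted p = 0.0118) after Nodal, and their part in these differences was not tested. By the brightest probe of each gene, with p-values adjusted over all probes, 0 of 9 genes passed, beside 2.25% of all genes. In a fit of the brightest probes alone, with adjustment over genes, Ccnd1 passed (adjusted p = 0.0440), as it did with the mean of its probes (adjusted p = 0.0483), so that the call of Ccnd1 lies close to the threshold.

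For the remaining genes the Nodal against Activin intervals bound the difference. Ccnd2 was 0.42 higher after Nodal (interval 0.15 to 0.69, adjusted p = 0.139), and the Cdkn2a probes were 0.39 (interval 0.12 to 0.66, adjusted p = 0.168) and 0.46 higher (adjusted p = 0.156). These intervals lie above 0 for each probe alone, but the p-values did not pass after adjustment over all probes. Ccne1 was at -0.25 (interval -0.45 to -0.05, adjusted p = 0.243). Cdkn1a was closest to 0, at -0.01 on the brightest probe (interval -0.22 to 0.19, adjusted p = 0.973). Ccnd3 on its brightest probe was at 0.10 (interval -0.11 to 0.32), Ccne2 at -0.12 (interval -0.38 to 0.13), Rb1 at -0.14 (interval -0.33 to 0.05) and Rbl1 at 0.06 (interval -0.20 to 0.33).

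**Figure D3:**
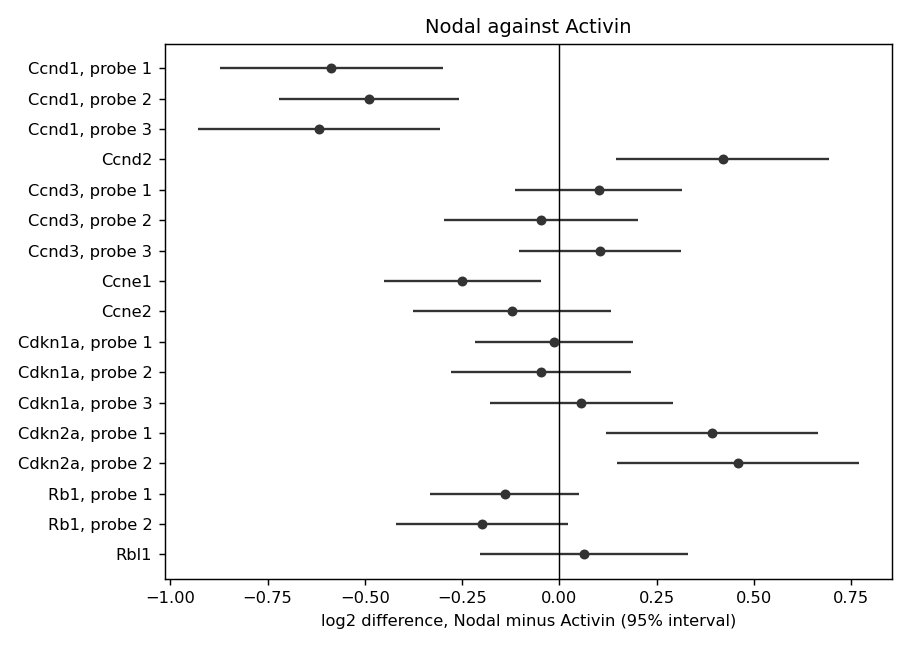
Log2 difference, Nodal minus Activin (horizontal axis), of the 17 tested probes, 2 arrays per group, with 95% intervals from the moderated SE that are not adjusted for multiple tests. The 3 Ccnd1 probes lie between -0.62 and -0.49, and the Cdkn1a probes between -0.05 and 0.06.

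Other genes of the pathway are given from 8 lists, by the brightest probe of each gene. Their counts stand beside 36.2% of all genes higher and 36.9% lower after Activin, and 36.5% and 37% after Nodal. By at least 2-fold in either direction, 26.9% and 27.6% of all genes passed. The lists were chosen with earlier results of these data known. Among 9 kinases and activators of G1 and S, 4 were tested and 2 were lower in both comparisons: Ccna2, the S-phase cyclin, with changes of -0.85 after Activin and -0.67 after Nodal, and Cdc25a, a phosphatase that activates Cdk2, with -0.38 and -0.35. Cdk2 itself was at 0.11 (adjusted p = 0.260) and 0.15 (adjusted p = 0.136), and 2 dimmer Cdk2 probes were lower. The list's median change was -0.16 after Activin and -0.13 after Nodal, beside -0.02 and -0.01 over all genes. Cdk6 was not detected, and Cdk4 had no probe under its name.

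Of 5 other inhibitors, 3 were tested. Cdkn2b (p15Ink4b), the neighbour of Cdkn2a in the genome, rose by 1.29 after Activin and by 1.51 after Nodal. Cdkn1c (p57) fell by 0.63 and by 0.42. Cdkn2d (p19Ink4d) was lower after Activin (change -0.33, adjusted p = 0.0490) and at -0.27 after Nodal (adjusted p = 0.0919). The inhibitors therefore did not share a direction.

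Of 11 further pocket protein and E2F genes, 9 were tested, with 2 higher and 5 lower after Activin and 2 higher and 6 lower after Nodal, and list medians of -0.68 and -0.59. The activator E2Fs were lower: E2f2 changed by -1.81 and -1.85, E2f1 by -1.44 and -1.34, and E2f3 by -0.68 and -0.59. Of the repressor members, E2f4 was lower (-1.02 and -1.03), while E2f5 (1.26 and 1.28) and E2f6 (0.96 and 0.94) were higher. Tfdp2, an E2F dimer partner, changed by -1.10 and -0.91.

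The listed E2F targets of the G1 to S transition moved one way. Of 21 genes, 18 were tested. All 18 were lower after Activin, and 17 after Nodal with Rrm1 at -0.18 (adjusted p = 0.0996), beside 36.9% and 37% of all genes. Of them, 10 were lower by at least 2-fold in each comparison, and the list medians were -1.04 and -1.09. Rpa2, a subunit of the single-strand DNA binding complex, changed by -1.97 and -1.91, Ung, a uracil-DNA glycosylase, by -1.60 and -1.67, Mcm3 of the replicative helicase by -1.63 and -1.64, its partners Mcm5 by -1.62 and -1.51 and Mcm7 by -1.58 and -1.73, Cdt1, which loads that helicase, by -1.57 and -1.51, and Pcna, the polymerase clamp, by -0.95 and -0.83. Cdc6 and Tyms each had a dimmer probe that was higher. Rbl1, a known E2F target outside this list, was higher after Activin (0.43) and after Nodal (0.49). Of 13 regulators of G2 and M, the 9 tested were all lower in both comparisons, with medians of -0.73 and -0.74. Ccnf changed by -1.77 and -1.90, and Plk1, a mitotic kinase, by -0.94 and -1.08. Wee1, which restrains Cdk1, changed by -0.92 and -0.83. Cdc25b was not detected in either treated group, so it met the detection filter through the undifferentiated arrays alone. It was at least 1.35-fold lower after Activin and at least 1.36-fold lower after Nodal.

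Genes listed under turnover of cyclin E and p27 mostly did not pass: of 8 tested among 10, 1 was higher and 2 were lower in each comparison. Fbxo4, an F-box protein whose link to cyclin E or p27 was not examined here, was at 0.94 and 0.96. Skp2, the F-box protein that marks p27 for degradation, was at -0.51 and -0.49. Usp28, a deubiquitinase that opposes Fbxw7, was at -2.43 and -2.52. Fbxw7, which marks cyclin E for degradation, was at 0.01 in both comparisons (adjusted p = 0.946 and 0.938), with a dimmer probe that was higher after Nodal (0.33). Rbx1 did not pass on its brightest probe (-0.03 and 0.02), while its dimmer probe was higher in both comparisons (0.93 and 0.79). The list medians were 0.03 and 0.04.

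Of 19 genes of p53 and its targets, 16 were tested, with 6 higher and 5 lower after Activin and 7 higher and 6 lower after Nodal. These counts are near the shares of all genes that passed, 36.2% higher and 36.9% lower after Activin and 36.5% and 37% after Nodal, and are not a result about the list. The medians were 0.09 and -0.09. Trp53 itself was lower (-0.53 and -0.68). Among the targets, Fas, a death receptor, rose by 2.13 and by 2.03 but was detected on 1 of 2 undifferentiated arrays, and Trp53inp1 rose by 1.13 and by 1.20. Ccng1 rose by 1.16 and by 1.32 on its brightest probe. Its other probes read 0.30 and 0.00 after Activin, of which the first passed. After Nodal they read 0.16 and -0.005, and neither passed. Gadd45a fell by 1.53 and by 1.46. Mdm2, the p53 ubiquitin ligase that p19Arf inhibits, was at -0.19 (adjusted p = 0.170) and -0.12 (adjusted p = 0.391), with a dimmer probe lower after Nodal (-0.38).

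Regulators of the Cdkn2a locus include the Polycomb repressors and Tbx3. Of 12 genes, 11 were tested, 3 higher and 7 lower in each comparison, with medians of -0.61 and -0.72. Cbx7, a Polycomb subunit that represses the locus, changed by -2.73 and -2.35, Eed by -1.91 and -1.88, Ezh2 by -1.03 and -1.18, and Tbx3, a repressor of p19Arf, by -2.60 and -2.03. Bmi1, another Polycomb repressor of the locus, was higher (0.79 and 0.78), but its undifferentiated arrays read 5.61 and 4.84, and it was detected on the first of them only. Ring1 was higher as well (0.56 and 0.69). Cbx8 was not detected in undifferentiated cells, and was at least 2.12-fold higher after Activin and at least 2.00-fold after Nodal, measured against the lowest detected signal. Of the tested genes of all 8 lists, Tbx3 alone passed between Nodal and Activin on the brightest probe, beside 2.25% of all genes. It was 0.57 higher after Nodal (adjusted p = 0.0165). Its probe ILMN_3139514 also passed (0.74), and ILMN_3061990 did not (0.30, adjusted p = 0.308). A dimmer probe of Fas was lower after Nodal (-0.45, adjusted p = 0.0423).

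**Figure D4:**
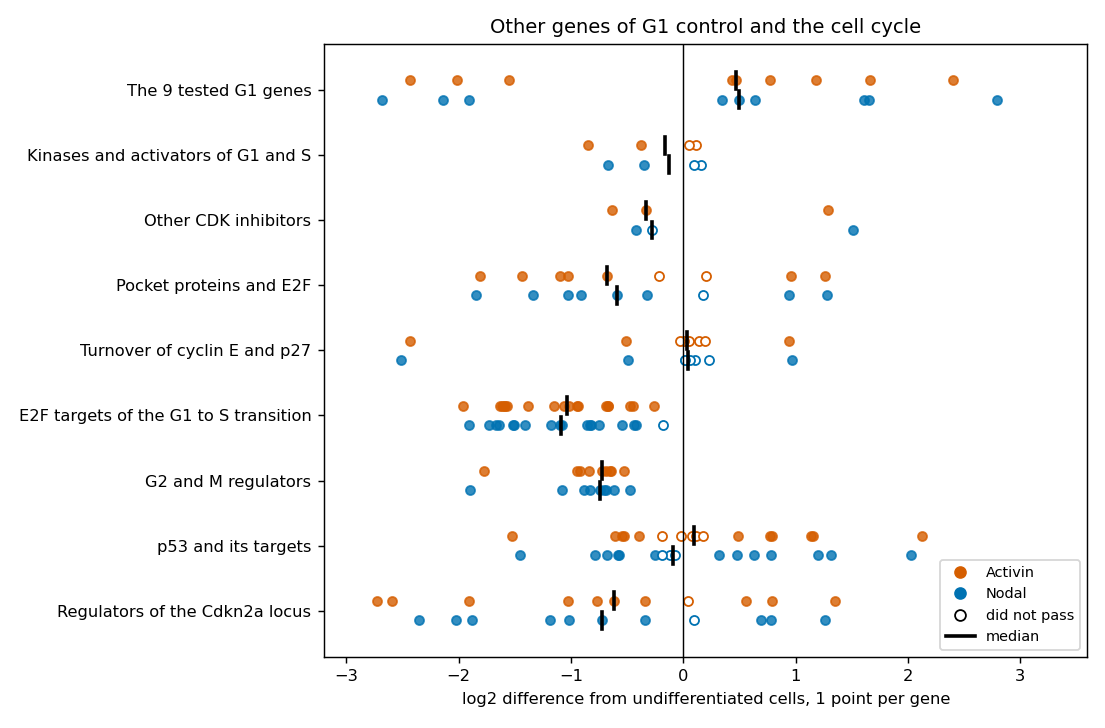
Log2 change from undifferentiated cells (horizontal axis) of the tested genes of each pathway list and of the 9 tested G1 cyclin and inhibitor genes, one point per gene at its brightest probe, for Activin and Nodal, with open points for genes that did not pass and a vertical tick at each list's median. The E2F target and G2 and M rows lie left of 0, with medians from -1.09 to -0.73, and the p53 row spreads on both sides.

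The genes whose pattern over the 6 arrays was most like each gene were found by the root mean square difference between log2 levels, each centred on its own mean. Ccnd1 was nearest to Pou3f1, a POU factor (difference 0.0686), and then Etv4, an ETS factor (0.114), and only 1 gene of all lay within 0.1. Cdkn2a was nearest to Marveld3 (0.0589) and Akr1c12 (0.0859), with 5 genes within 0.1. Ccne1 was nearest to Zbtb8a (0.0605) and Actn3 (0.0704), Ccnd2 to Pof1b (0.0678) and Cotl1 (0.071), and Ccnd3 to Pml (0.0372). These 3 had 11, 13 and 39 genes within 0.1. Cdkn1a was nearest to Cstb (0.0267) and Rragd (0.0391), with 91 genes within 0.1. Rb1 was nearest to Plk2 (0.0226), Rbl1 to Zfp868 (0.0288) and Ccne2 to Mzt1 (0.0396), with 341, 143 and 138 genes within 0.1. Genes with small changes had many neighbours by this measure, and Ccnd1 and Cdkn2a had the fewest.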

How the data were processed

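Per the file headers, each row of the deposited table gave a non-normalized signal intensity and a detection p-value for each probe on each of the 6 Illumina arrays. No source used here names the array model, scanner software or slide. The authors' deposited averages, also intensities, had ranks close to those of the mean of each group's arrays (rank correlation 0.999976) and values below 0. Their scaling is not stated, so they were used only as a check without a test. Intensities were background-corrected with limma 3.58.1 in R 4.3.3 (normal-exponential model on detection p-values, offset 16), quantile-normalized and log2-transformed. A linear model of the 3 groups was fitted at probe level to 14050 probes detected (p under 0.05) on at least 2 arrays, with moderated two-sided tests and Benjamini-Hochberg adjustment over all probes. A probe passed at an adjusted p under 0.05, and a second rule also asked for 2-fold. A gene is represented by its brightest probe over all arrays.

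The model was also run on simulated data, with levels and spreads taken from these arrays, and the outcome is not given here. The genes and lists were chosen with earlier results of these data known. All 10 chosen genes are named. From each list, the text names up to 4 genes with the largest passing changes and others for their role, some of which were picked after their values were seen. The number of arrays limits the precision. The sample descriptions state 2, 3 and 4 replicates and the series design states 2. The table holds 2 per group. Symbols were updated through a RefSeq table of GRCm38.p6. Alternatives covered background correction, offset, scaling, probe filter, probe choice, a minimum fold of 1.5 (treat), the replicate block and leaving out each array.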

Additional observations from a re-analysis of the deposited data

Results flagged for a closer look

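Nodal and Activin endoderm differed on 1 tested probe of these genes by the test of the difference itself. Ccnd1 on ILMN_2601471 was lower after Nodal, with a log2 difference of -0.49 (adjusted p = 0.0484). With the reported fit counted among the alternatives, this difference ranged from -0.61 to -0.37 and passed in 6 of 15 fits.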

How the results depend on the processing

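No called change of these genes reversed under the alternatives run. Against undifferentiated cells, 249 of the probe results after Activin kept their call and 7 lost it, and after Nodal 250 kept it and 6 lost it. Between Nodal and Activin, 229 kept it, 9 lost it and 18 gained it. The probes that passed after Activin or Nodal, 10 higher and 7 lower, became 6 higher and 3 lower with 1 value per gene (brightest probe or mean of probes), since fewer features are tested, and 6 were higher under a minimum fold of 1.5. That test called 4547 and 4689 of all probes, where the main counts were 10186 and 10284. Leaving out 1 array, which leaves a group with a lone array assumed to vary like the others, gave 9386 to 10015 and 9316 to 10387 probes, with 9 to 10 of these genes' probes higher and 7 lower. Between Nodal and Activin, 286 probes passed, 518 without background correction, 517 with an offset of 50, 70 without the filter, 8 with a minimum fold of 1.5 and 57 to 212 with 1 array left out. Of the G1 cyclin and inhibitor probes, 0 were higher and 1 lower in that comparison. Without background correction or with an offset of 50, 3 were higher and 3 lower, and 3 were also lower under median scaling and the stricter filter. With cyclic loess, no filter, a minimum fold of 1.5 or the replicate block, 0 were lower, and 0 to 3 with 1 array left out. On ILMN_2601471 of Ccnd1 the adjusted p was 0.0525 with the replicate block, 0.0530 with cyclic loess and 0.116 without the filter. The cause was not tested. The replicate block called 294 probes in all. After normalization, the deviations of same-numbered arrays from their group means had correlations of 0.097, 0.0013 and 0.032. Quantile normalization removes shifts of a whole array, so these values cannot show such shifts. Before normalization, replicate 1 had a higher median signal than replicate 2 in each group. The medians were 60.2 and 59.2 for Activin, 60.9 and 57.5 for Nodal, and 56.7 and 55.2 for undifferentiated cells. The labels do not say if same-numbered arrays share a batch, and this was not tested. Median scaling moved the median change of all probes from -0.03 to 0.07 in both comparisons with undifferentiated cells and the share of higher calls from 48.6% to 55.7% after Activin. In the authors' deposited table, 6 changes of these probes differed from the fitted ones by more than the spread between arrays, in the same direction, such as Ccnd3 on ILMN_2661849 with -1.74 after Activin. A slide or scan block was not run, since no source used here gives either.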
